A study of Homo sapiens with 12 samples.

Results

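Serpins are a superfamily of proteins that mostly inhibit serine proteases, and some members inhibit cysteine proteases. An inhibitory serpin offers its reactive centre loop as bait, and cleavage of the loop drives a change of fold that traps the protease in a covalent complex and consumes the serpin. Several members have lost this activity and carry hormones, fold collagen or signal instead. In vertebrates the family is divided into clades A to I: clade A holds mostly secreted plasma proteins, clade B mostly intracellular inhibitors that protect cells from proteases of their own or of neighbouring cells, and the other clades hold coagulation, fibrinolysis, complement, collagen and neural serpins. Members were taken as all genes whose annotated symbol is SERPIN followed by a clade letter from A to I and a number. This gave 30 of the 19775 genes that the array measured with a probe set naming 1 gene, and serpin genes without such a probe set were not analysed here. The 30 members comprised 10 genes of clade A, 11 of clade B, 2 each of clades F and I, and 1 each of clades C, D, E, G and H.

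The study asked how transcripts change in A549 cells when subunits of the SIN3-HDAC co-repressor, which brings histone deacetylases to chromatin, are depleted. A549 is a human lung adenocarcinoma cell line of epithelial origin. The groups were 3 arrays of FAM60A knockdown (siRNA against FAM60A, current symbol SINHCAF) and 3 arrays of their own non-targeting siRNA controls, then 3 arrays of SDS3 knockdown (siRNA against SDS3, current symbol SUDS3) and 3 arrays of separate non-targeting controls. All 12 cultures received siRNA at 50 nM with a transfection reagent and were collected 3 days after transfection, so the controls were transfected cells too, and no control array served both experiments. The treatment text of the labels names the FAM60A and non-targeting siRNAs, and the SDS3 group comes from the sample titles. The labels describe triplicate wells without naming separate cultures. The p-values therefore reflect the spread among these wells alone, which may be technical, and 3 arrays a group limit how precise any value is.

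Values are log2 of the deposited array signal, and a change is the knockdown mean minus the control mean. The median signal of an array lay between 186 and 192.6 in the FAM60A experiment and between 96.8 and 98.3 in the SDS3 experiment, and levels were therefore compared within each experiment. SINHCAF averaged 9.30 ± 0.163 in the FAM60A knockdown and 11.99 ± 0.0195 in its controls (SD, n = 3 each), which left 15.5% of the control signal. SUDS3 averaged 8.47 ± 0.151 in the SDS3 knockdown and 10.05 ± 0.0463 in its controls (SD, n = 3 each), which left 33.4%. SINHCAF stood at 127.5% of its controls in the SDS3 knockdown (limma adjusted p = 0.00291), and SUDS3 at 102.8% in the FAM60A knockdown (limma adjusted p = 0.698). The 9 epithelial and A549 markers that were measured lay above the array median on all 12 arrays. Of 13 markers of leukocytes, endothelium, hepatocytes and fibroblasts, 5 did so on all 12 arrays and 5 on none. The first set was CD3E and CD14 of leukocytes, PECAM1 and VWF of endothelium and TTR of hepatocytes. The second was PTPRC and LYZ of leukocytes, CDH5 of endothelium and ALB and APOA1 of hepatocytes. Of the 9 epithelial and A549 markers, EPCAM and CDH1 were lower and KRT19 higher in the FAM60A knockdown, with 6 not passing, and 8 were lower in the SDS3 knockdown, with ALDH1A1 not passing. The 24 spike-in RNA probe sets were 0.10 higher in the FAM60A knockdown (two-sided exact permutation p = 0.5) and 0.32 higher in the SDS3 knockdown (p = 0.1, the smallest that 3 against 3 arrays allow) than in their controls. The 3 probe sets of 18S ribosomal RNA were 0.28 and 0.53 higher (exact p = 0.1 in each), and the part of these shifts in the results was not tested. Scaling to the spike-in RNA moves every SDS3 change down by 0.32 and every FAM60A change down by 0.10, with the median of all genes at -0.32 and -0.12, and all directions below are relative to the deposited scaling. In bulk RNA, a signal lost from some cells and a lower signal in every cell cannot be told apart.

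Of the 30 members, 28 had at least 3 arrays at log2 5 or more and were tested among 18621 genes. The level was the same in both experiments, although array medians lay at log2 7.54 to 7.59 in the FAM60A experiment and 6.60 to 6.62 in the SDS3 experiment. It thus lay closer to the median of the SDS3 arrays, and a value under it does not mean the same in both. The squamous cell antigen gene SERPINB4 and the gene of the thrombin inhibitor heparin cofactor II, SERPIND1, stayed under log2 5 on all 12 arrays and were not tested. SERPINB11 was tested with a mean over all arrays under log2 5. It passed the filter through 4 FAM60A arrays, with all FAM60A controls among them and no SDS3 array. A total of 9 members lay above the array median on all 12 arrays (SERPINA3, SERPINA9, SERPINB1, SERPINB8, SERPINB9, SERPINE2, SERPINF1, SERPINF2 and SERPINH1) and 12 on none.

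In the FAM60A knockdown 9 of the 28 tested serpins passed limma at an adjusted p under 0.05, against 36.8% of all tested genes. The 4 higher ones (19.2% of all genes were higher) were SERPINA3, SERPINB7, SERPINE2 and SERPINI1, and the 5 lower ones (17.6%) were SERPINA6, SERPINB1, SERPINB8, SERPINB9 and SERPINB11. In the SDS3 knockdown 11 of 28 passed, against 34.6% of all tested genes. The 4 higher ones (15.8% of all genes) were SERPINA3, SERPINA12, SERPINE2 and SERPINI2, and the 7 lower ones (18.8%) were SERPINA5, SERPINA6, SERPINB1, SERPINB7, SERPINB9, SERPINH1 and SERPINI1. The shares of serpins that passed lay near those of all genes in both experiments. The median change of the 28 members was -0.085 in the FAM60A knockdown, where that of all tested genes was -0.023, and 0.047 in the SDS3 knockdown, where it was 0.0064. A change of at least 2-fold was seen in 1 member in each knockdown, SERPINB9, and in 1.84% and 1.85% of all tested genes.

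**Figure D1:**
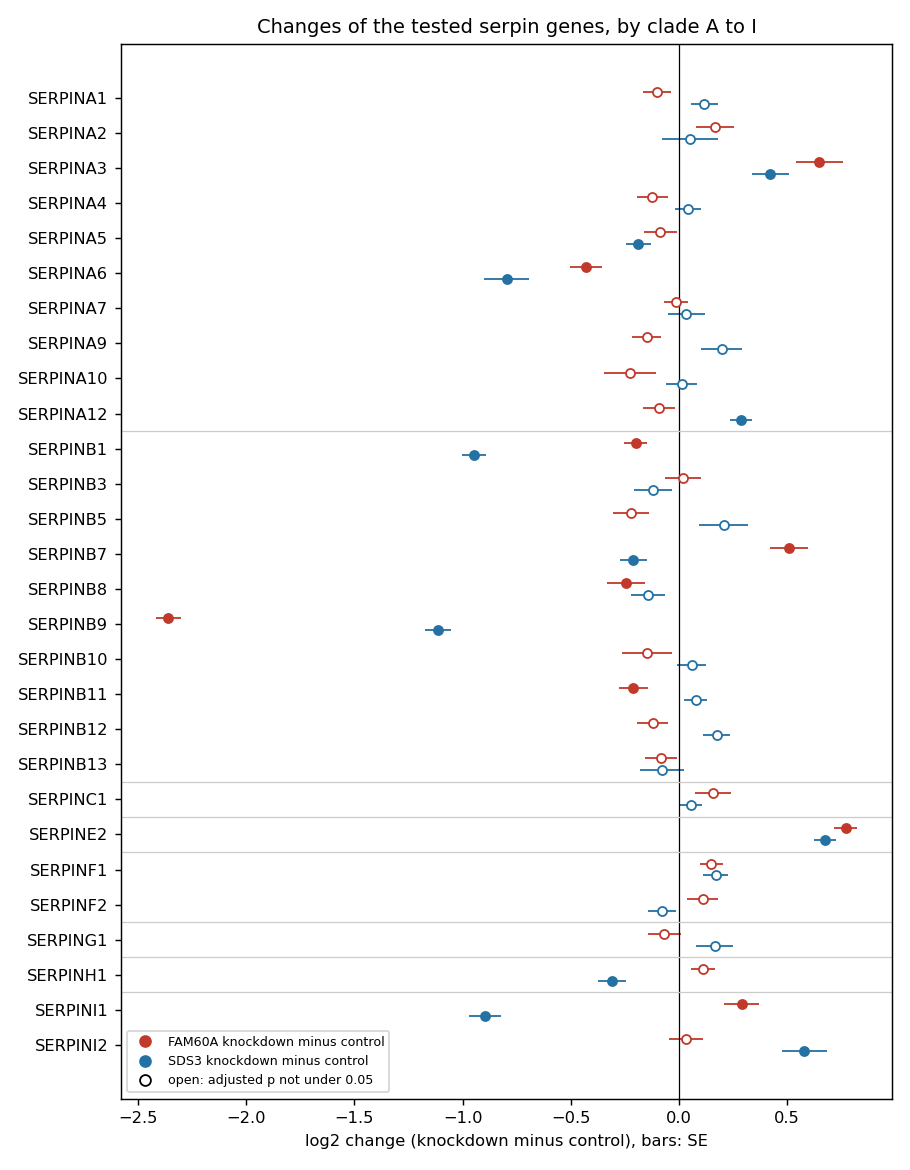
Log2 change (knockdown minus control) of the 28 tested serpin genes by clade, with the FAM60A knockdown in red above the SDS3 knockdown in blue, bars of 1 SE, and filled points for a limma adjusted p under 0.05. SERPINB9 lies farthest left in both knockdowns (-2.36 and -1.11), SERPINE2 lies at 0.77 and 0.67, and SERPINI1 and SERPINB7 have filled points on opposite sides of 0.

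Both knockdowns moved 5 serpins the same way: SERPINB9, SERPINB1 and SERPINA6 were lower, and SERPINE2 and SERPINA3 were higher. A further 2, SERPINB7 and SERPINI1, were higher in the FAM60A knockdown and lower in the SDS3 knockdown. Of all tested genes, 18.1% passed in the same direction in both knockdowns and 2.59% in opposite directions, and 15 of the 28 serpins passed in neither, where 49.3% of all genes did. The promoter windows of the 5 genes that moved alike are shown because these members moved together in both experiments. The sequences are those of RefSeq on GRCh38.p14, 250 bases before and 50 after the annotated start, written 5′ to 3′ on the strand of the gene. Capitals mark matches, on either strand, to a GC box (GGGCGG), the TATA box (TATAAA), an E-box (CACGTG), an AP-1 site (TGANTCA), the antioxidant response core (TGACNNNGC) or a heat shock half-site pair (GAANNTTC).
SERPINB9, chr6:2903260-2903559, minus strand: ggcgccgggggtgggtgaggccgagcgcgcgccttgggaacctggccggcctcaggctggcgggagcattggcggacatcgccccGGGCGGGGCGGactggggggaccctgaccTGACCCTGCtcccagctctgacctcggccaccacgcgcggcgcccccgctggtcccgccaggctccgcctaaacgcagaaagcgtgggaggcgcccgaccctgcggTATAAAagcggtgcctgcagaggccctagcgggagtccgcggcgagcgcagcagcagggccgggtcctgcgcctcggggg
SERPINB1, chr6:2841814-2842113, minus strand: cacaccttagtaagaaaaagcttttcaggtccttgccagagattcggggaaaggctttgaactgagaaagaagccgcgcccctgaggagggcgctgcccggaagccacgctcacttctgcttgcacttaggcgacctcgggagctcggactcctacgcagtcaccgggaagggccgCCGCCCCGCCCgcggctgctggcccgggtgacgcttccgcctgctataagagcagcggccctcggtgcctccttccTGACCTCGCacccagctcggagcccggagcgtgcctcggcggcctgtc
SERPINA6, chr14:94323287-94323586, minus strand: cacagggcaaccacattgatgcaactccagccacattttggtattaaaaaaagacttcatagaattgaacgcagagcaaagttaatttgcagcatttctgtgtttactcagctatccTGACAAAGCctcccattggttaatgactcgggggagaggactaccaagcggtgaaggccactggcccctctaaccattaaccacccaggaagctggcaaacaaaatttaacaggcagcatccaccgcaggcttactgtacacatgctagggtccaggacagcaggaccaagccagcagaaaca
SERPINE2, chr2:224038591-224038890, minus strand: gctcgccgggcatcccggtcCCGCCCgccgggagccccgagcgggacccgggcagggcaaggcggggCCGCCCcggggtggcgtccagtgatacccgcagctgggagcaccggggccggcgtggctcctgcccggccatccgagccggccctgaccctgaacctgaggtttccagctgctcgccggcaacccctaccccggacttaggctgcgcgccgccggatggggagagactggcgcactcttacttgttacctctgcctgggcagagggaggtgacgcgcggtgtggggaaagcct
SERPINA3, chr14:94612141-94612440, plus strand: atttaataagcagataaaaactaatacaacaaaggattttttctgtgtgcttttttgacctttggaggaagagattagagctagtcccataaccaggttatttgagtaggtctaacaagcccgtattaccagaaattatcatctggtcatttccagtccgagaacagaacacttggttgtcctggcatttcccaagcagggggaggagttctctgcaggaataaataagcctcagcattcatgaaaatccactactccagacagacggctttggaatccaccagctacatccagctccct

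The SERPINE2 window belongs to the more upstream of its 2 listed starts. The window of SERPINB9 holds 2 overlapping GC boxes beginning at -165 and -160 from the start, an antioxidant response core at -136 and a TATA box at -30. That of SERPINB1 holds 2 overlapping GC boxes on the opposite strand, beginning at -74 and -69, and an antioxidant response core at 3. SERPINE2 has 2 GC boxes on the opposite strand, at -230 and -183, SERPINA6 an antioxidant response core at -133, and the SERPINA3 window has none of the 6 motifs. A GC box occurs in 45% of 35114 RefSeq promoter windows of this length, and an antioxidant response core in 13.3%. Among the 23 members with a listed window, 6 hold a GC box, 5 a TATA box (11.5% of all windows), 5 an AP-1 site (7.71%), 4 an antioxidant response core, 3 a heat shock pair (6.77%) and 0 an E-box (7.26%). These are letters in the sequence and say nothing of binding.

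SERPINB9, the intracellular inhibitor of granzyme B by which cells withstand cytotoxic lymphocytes, showed the largest change of the family. Its log2 signal was 9.68, 9.65 and 9.57 in the FAM60A knockdown, against 11.99, 12.04 and 11.95 in its controls. It was 10.44, 10.35 and 10.51 in the SDS3 knockdown, against 11.59, 11.55 and 11.49 in its controls. All knockdown arrays lay below all of their controls in both experiments. The FAM60A knockdown left 19.5% of the control signal (log2 change -2.36, SE 0.0571, limma adjusted p = 3.61e-09), the fourth lowest change of all 18621 tested genes. The SDS3 knockdown left 46.2% (log2 change -1.11, SE 0.0598, limma adjusted p = 4.65e-06), which ranked 128 from the lowest. The SDS3 change minus the FAM60A change was 1.25 (SE 0.0804, limma adjusted p = 1.77e-07), so the fall was smaller in the SDS3 knockdown on this probe set.

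The other probe sets of SERPINB9 fell as well, by differing amounts. Probe set 209722_s_at changed by -1.13 in the FAM60A knockdown and -1.06 in the SDS3 knockdown, and 242814_at by -0.28 and -0.43, and all 4 changes passed limma on every probe set. The difference between the knockdowns did not pass on either of these probe sets (0.067, limma adjusted p = 0.792, and -0.15, adjusted p = 0.372). With the mean of the 3 probe sets of the gene the FAM60A change of SERPINB9 was -1.26 and the difference 0.39. The fall of SERPINB9 in both knockdowns was therefore seen on all 3 probe sets, and its unequal size on 1.

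SERPINB1 inhibits neutrophil elastase, proteinase 3 and cathepsin G, and lies near SERPINB9 on chromosome 6. It gave 10.97, 11.02 and 11.03 in the FAM60A knockdown, against 11.21, 11.22 and 11.19 in its controls. It gave 9.80, 9.72 and 9.82 in the SDS3 knockdown, against 10.78, 10.73 and 10.67 in its controls. The groups did not overlap in either experiment, and the gap was wider in the SDS3 experiment. The change was -0.20 in the FAM60A knockdown (SE 0.0529, limma adjusted p = 0.0123) and -0.95 in the SDS3 knockdown (SE 0.0558, limma adjusted p = 6.66e-06), where 51.9% of the control signal was left. The difference of -0.75 passed (SE 0.0722, limma adjusted p = 4.98e-06). It also passed on 213572_s_at (-0.53) and 228726_at (-0.52), while 239213_at passed in neither knockdown. In the FAM60A knockdown alone, 213572_s_at passed (-0.37, limma adjusted p = 0.00101) and 228726_at did not (-0.18, limma adjusted p = 0.0645). With the mean of the 4 probe sets the difference was -0.47. Scaling to the spike-in or to the hybridization controls ended the FAM60A call of SERPINB1.

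SERPINA6 encodes corticosteroid-binding globulin, a cortisol carrier without inhibitory activity. Its values were 7.34, 7.43 and 7.36 in the FAM60A knockdown, against 7.77, 7.69 and 7.97 in its controls, and 6.40, 6.68 and 6.23 in the SDS3 knockdown, against 7.25, 7.16 and 7.28 in its controls. Knockdown arrays were the low ones in both experiments, with no overlap. The change was -0.43 (SE 0.0737, limma adjusted p = 0.000883) in the FAM60A knockdown and -0.80 (SE 0.104, limma adjusted p = 0.000468) in the SDS3 knockdown. The difference of -0.37 did not pass (limma adjusted p = 0.0629).

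SERPINE2 had the largest rise of the family in both knockdowns and encodes protease nexin 1, a cell-surface and matrix inhibitor of thrombin, urokinase and tissue plasminogen activator. It read 13.14, 13.11 and 13.09 in the FAM60A knockdown, against 12.37, 12.30 and 12.35 in its controls. In the SDS3 knockdown it read 13.62, 13.56 and 13.62, against 12.97, 12.91 and 12.91 in its controls. Arrays of a group agreed closely and the groups stood well apart in both experiments. The rise was 1.71-fold in the FAM60A knockdown (log2 change 0.77, SE 0.0537, limma adjusted p = 1.50e-06) and 1.60-fold in the SDS3 knockdown (0.67, SE 0.0502, limma adjusted p = 2.11e-05), where spike-in scaling gave 0.35 (limma adjusted p = 0.0331). The difference was -0.097 (SE 0.068, limma adjusted p = 0.329). A second probe set, 227487_s_at, changed by 0.47 in the FAM60A knockdown, which did not pass (limma adjusted p = 0.0858), and by 0.82 in the SDS3 knockdown, which did (adjusted p = 0.000295).

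SERPINA3 encodes α1-antichymotrypsin, an acute-phase inhibitor of cathepsin G and chymase. It measured 8.16, 8.51 and 8.62 in the FAM60A knockdown, against 7.80, 7.90 and 7.65 in its controls, and 7.68, 7.50 and 7.83 in the SDS3 knockdown, against 7.22, 7.35 and 7.19 in its controls. The knockdown arrays were higher and more spread than the controls in both experiments, without overlap. The rise was 1.57-fold in the FAM60A knockdown (log2 change 0.65, SE 0.109, limma adjusted p = 0.000739) and 1.34-fold in the SDS3 knockdown (0.42, SE 0.0864, limma adjusted p = 0.00520). Spike-in scaling ended the SDS3 call: the change was then 0.10 (limma adjusted p = 0.532), beside a median of all genes that moved to -0.32.

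SERPINI1 encodes neuroserpin, an inhibitor of tissue plasminogen activator best known from neurons. It gave 8.08, 8.16 and 8.32 in the FAM60A knockdown, against 7.94, 7.76 and 8.00 in its controls. It gave 5.84, 5.67 and 5.68 in the SDS3 knockdown, against 6.53, 6.73 and 6.61 in its controls. The FAM60A knockdown arrays lay just above their controls and the SDS3 knockdown arrays well below theirs. The change was 0.29 in the FAM60A knockdown (SE 0.0802, limma adjusted p = 0.0155) and -0.90 in the SDS3 knockdown (SE 0.0725, limma adjusted p = 3.30e-05), which left 53.7%. The difference of -1.19 (SE 0.115, limma adjusted p = 5.20e-06) kept its call under all 25 alternatives. The FAM60A rise did not pass under spike-in scaling, without FAM60A control replicate 2 or without FAM60A knockdown replicate 3.

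SERPINB7, or megsin, is a clade B serpin of kidney mesangial cells and epidermis. It read 7.46, 7.55 and 7.28 in the FAM60A knockdown, against 6.78, 6.90 and 7.07 in its controls, and 7.13, 7.13 and 7.24 in the SDS3 knockdown, against 7.44, 7.41 and 7.28 in its controls. The knockdown arrays lay above the controls in the FAM60A experiment and below them in the SDS3 experiment. The change was 0.51 in the FAM60A knockdown (SE 0.0877, limma adjusted p = 0.000887) and -0.21 in the SDS3 knockdown (SE 0.0624, limma adjusted p = 0.0288). The difference was -0.72 (SE 0.116, limma adjusted p = 0.000402). The SDS3 fall did not pass without SDS3 control replicate 1 or 2, without SDS3 knockdown replicate 1 or 2, or in a fit of all 12 arrays, and was -0.54 under spike-in scaling.

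**Figure D2:**
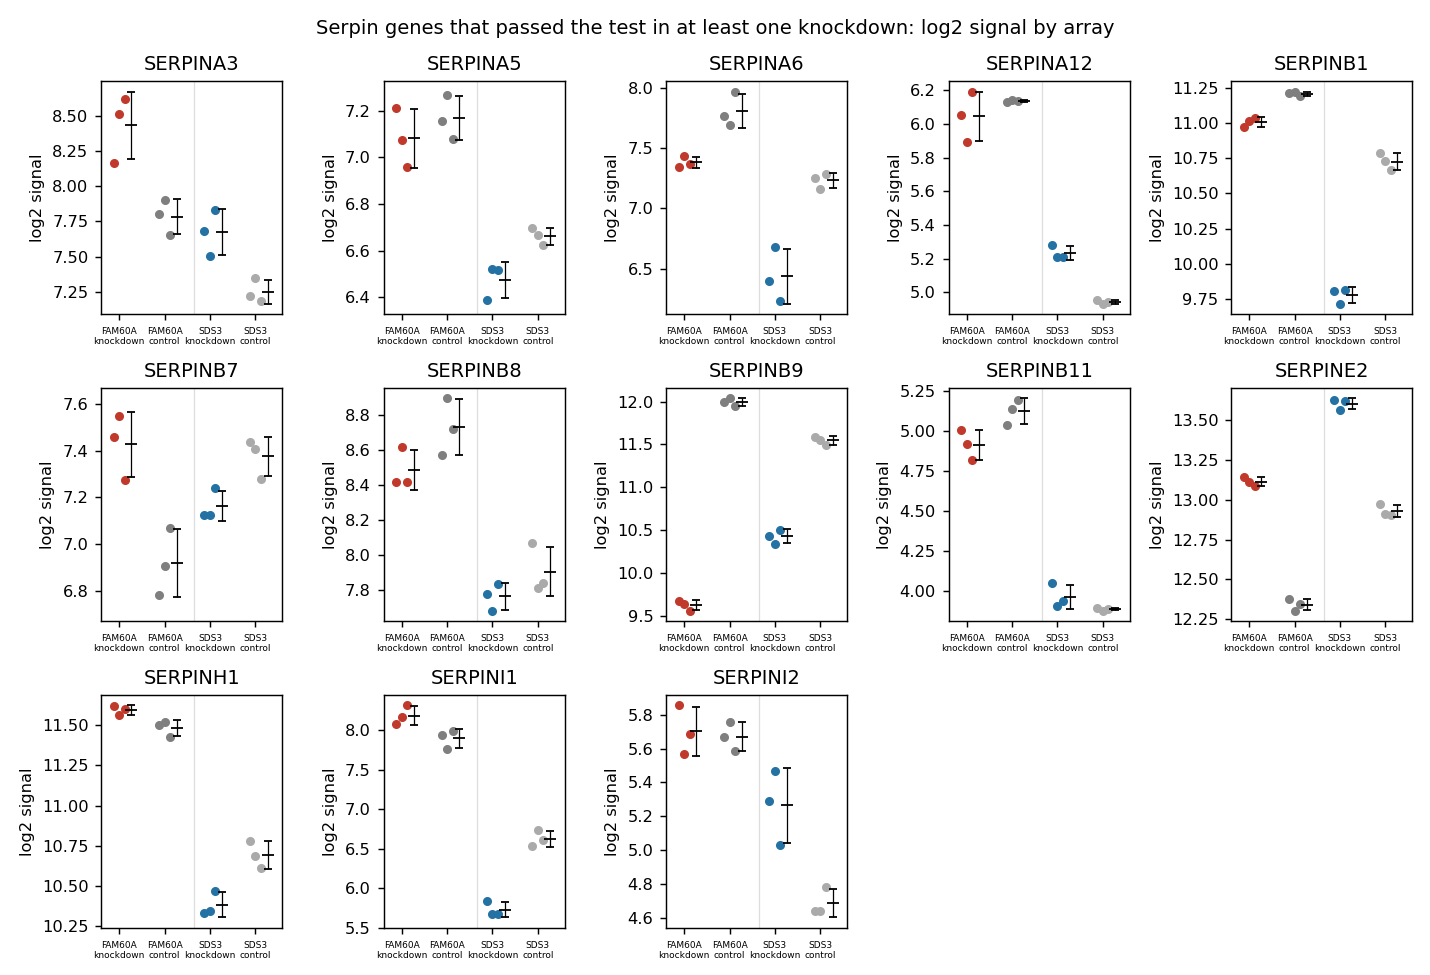
Log2 signal on each array for the 13 serpin genes that passed in at least 1 knockdown, with the knockdown to the left of its controls in each experiment, points for arrays and bars for the mean ± SD (n = 3 each), on an axis of its own for each gene. SERPINB9 is low in both knockdowns (9.63 and 10.43, against 11.99 and 11.55 in the controls), while SERPINI1 lies above its controls in the FAM60A knockdown and below them in the SDS3 knockdown.

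SERPINH1, or HSP47, is a collagen chaperone of the endoplasmic reticulum without inhibitory activity. Its values were 11.62, 11.56 and 11.60 in the FAM60A knockdown, against 11.50, 11.52 and 11.43 in its controls. They were 10.33, 10.35 and 10.47 in the SDS3 knockdown, against 10.78, 10.69 and 10.61 in its controls. Neither pair of groups overlapped, and the knockdown arrays were the higher ones in the FAM60A experiment and the lower ones in the SDS3 experiment. The change of 0.11 in the FAM60A knockdown did not pass (limma adjusted p = 0.143), and SERPINH1 fell by 0.31 in the SDS3 knockdown (SE 0.0649, limma adjusted p = 0.00600). The difference of -0.42 passed (SE 0.0832, limma adjusted p = 0.00189). Under spike-in scaling the SDS3 change was -0.63 and the difference -0.64.

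The other members that passed in 1 knockdown did so with small changes or near the level filter. SERPINI2, or pancpin, read 5.29, 5.47 and 5.03 in the SDS3 knockdown, against 4.64, 4.64 and 4.78 in its controls, and SERPINA12, the adipokine vaspin, read 5.28, 5.21 and 5.21, against 4.96, 4.93 and 4.94. Their control means lay under log2 5, and with these set to that level the rises were at least 1.20-fold and at least 1.17-fold. The level is that of the filter and not a measured limit of detection. These bounds were not tested. The changes tested, with the control values as measured, were 0.58 for SERPINI2 (limma adjusted p = 0.00266) and 0.29 for SERPINA12 (limma adjusted p = 0.00207). Both calls were lost under spike-in scaling, where the change of SERPINI2 was 0.26 and that of SERPINA12 -0.036. SERPINA5, the protein C inhibitor, gave 6.39, 6.52 and 6.52 in the SDS3 knockdown, against 6.70, 6.67 and 6.62 in its controls (change -0.19, SE 0.057, limma adjusted p = 0.0329). This call was lost without any 1 of the 3 controls or without SDS3 knockdown replicate 1, and the change was -0.51 under spike-in scaling.

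SERPINB8, an intracellular inhibitor of furin, read 8.42, 8.62 and 8.42 in the FAM60A knockdown, against 8.57, 8.89 and 8.72 in its controls, and these groups overlapped. The change was -0.25 (SE 0.0868, limma adjusted p = 0.0469) and was lost under 11 of 20 alternatives, among them leaving out FAM60A control replicate 2 (-0.16) or 3, or knockdown replicate 1 or 3. Its other probe set, 1554616_at, changed by -0.17 there (limma adjusted p = 0.112). SERPINB11 gave 5.01, 4.92 and 4.82 in the FAM60A knockdown, against 5.04, 5.14 and 5.20 in its controls. The knockdown mean lay under log2 5, and with it set to that level the fall was at least 1.09-fold. The change tested, with values under that level left as measured, was -0.21 (limma adjusted p = 0.0308). This call was lost under 10 of 17 alternatives, among them leaving out control replicate 2 or 3 or knockdown replicate 2 or 3. The gene entered the test through the FAM60A controls, where it was higher, so the call is not independent of the filter.

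The difference between the knockdown changes passed for 10 of the 28 members, against 25.3% of all tested genes. In 6 of them the SDS3 change was the more positive, as in 9.99% of all genes: SERPINB9, SERPINI2, SERPINA12, SERPINA9, SERPINB12 and SERPINB11. In 4 it was the more negative, as in 15.3% of all genes: SERPINI1, SERPINB1, SERPINB7 and SERPINH1. SERPINA9, or centerin of germinal centre B cells, and the epithelial serpin SERPINB12 passed only this contrast among the 3, with differences of 0.35 (limma adjusted p = 0.0465) and 0.30 (adjusted p = 0.0408), which were lost under 17 and 14 of 25 alternatives. Leaving out any 1 array except FAM60A control replicate 3 or SDS3 knockdown replicate 3 ended the call of SERPINA9. For SERPINB12 it was lost without FAM60A control or knockdown replicate 2 or 3, SDS3 control replicate 1 or 2, or SDS3 knockdown replicate 2 or 3. All 6 SDS3 arrays of SERPINB11 lay between 3.88 and 4.05, so its passing difference does not rest on SDS3 values above the level of log2 5. That level lies closer to the array median in the SDS3 experiment than in the FAM60A experiment. With means under log2 5 set to that level, the differences were at least 0.23 for SERPINI2 and at least 0.32 for SERPINA12. Spike-in scaling ended this call for SERPINA9, SERPINA12, SERPINB12 and SERPINI2, where the differences lay between 0.074 and 0.32. By clade, 5 of the 10 tested clade B genes passed for the difference, as did 2 of 10 in clade A, both clade I genes and SERPINH1. The experiments differed in target, in the share of it left (15.5% and 33.4%) and in arrays, which cannot be told apart in this contrast.

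The groups did not overlap for 11 members in the FAM60A experiment (48.1% of all genes) and 14 in the SDS3 experiment (47.6%). SERPINF1, the antiangiogenic and neurotrophic factor PEDF, was among them without passing. It read 8.33, 8.26 and 8.34 in the FAM60A knockdown, against 8.14, 8.18 and 8.15 in its controls, and 7.68, 7.86 and 7.75 in the SDS3 knockdown, against 7.59, 7.58 and 7.61 in its controls. The knockdown arrays were the higher ones in both, with changes of 0.15 (limma adjusted p = 0.0515) and 0.17 (adjusted p = 0.0543). SERPINB5, or maspin, a non-inhibitory epithelial serpin, had a difference of 0.43 between the knockdowns that did not pass (limma adjusted p = 0.0568).

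Of the 15 members that passed in neither knockdown, the changes ran from -0.23 to 0.17 in the FAM60A knockdown and from -0.12 to 0.21 in the SDS3 knockdown. They were the elastase inhibitor α1-antitrypsin (SERPINA1), its close relative SERPINA2, the kallikrein inhibitor kallistatin (SERPINA4), thyroxine-binding globulin (SERPINA7), SERPINA9, the factor Xa inhibitor SERPINA10, the squamous cell antigen SERPINB3, SERPINB5, SERPINB10, SERPINB12, SERPINB13, antithrombin (SERPINC1), SERPINF1, α2-antiplasmin (SERPINF2) and the C1 inhibitor (SERPING1). A second probe set of SERPINC1, 1554491_a_at, changed by 0.30 in the SDS3 knockdown and passed (limma adjusted p = 0.0244), while the probe set used changed by 0.054. SERPINB3 and SERPINB4 are near-identical copies, so their signals are uncertain. A probe set annotated to both changed by 0.18 and -0.17, and passed in neither knockdown. Its difference between the knockdowns was -0.35 and passed (limma adjusted p = 0.0449).

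A total of 18 other probe sets covered 9 of the members, and 14 of them passed the level filter. Of these 3 passed in the FAM60A knockdown, against 26.8% of every probe set tested, and 6 in the SDS3 knockdown, against 24.2%. The 3 were 2 of SERPINB9 and 1 of SERPINB1, all lower. The 6 were 2 lower ones each of SERPINB9 and SERPINB1, and 1 higher one each of SERPINE2 and SERPINC1. Besides those of SERPINB1, the difference passed on 1554491_a_at of SERPINC1 (0.52, limma adjusted p = 0.0108) and 215817_at of SERPINB13 (0.34, adjusted p = 0.0218). It also passed on 1554616_at of SERPINB8 (0.31, adjusted p = 0.0382). On the probe sets used for these 3 genes it did not pass, nor on 216257_at and 217272_s_at of SERPINB13. None of the tested other probe sets of SERPINA1, SERPINB9 or SERPINE2 passed for it.

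**Figure D3:**
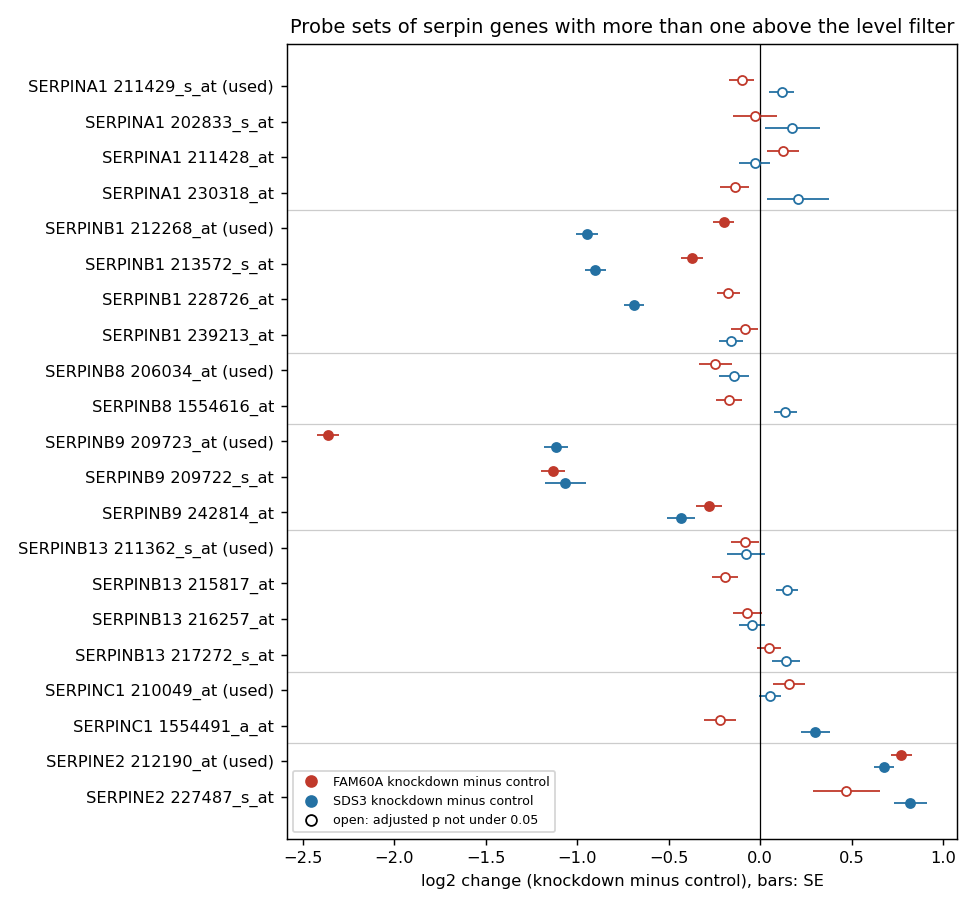
Log2 change (knockdown minus control) of each probe set of the serpin genes with more than 1 above the level filter, in limma on all probe sets, with the FAM60A knockdown in red above the SDS3 knockdown in blue, bars of 1 SE, and filled points for a limma adjusted p under 0.05. All 3 probe sets of SERPINB9 have filled points below 0 in both knockdowns, but the changes of -2.36 and -1.11 on the probe set used stand apart only there, with -1.13 and -1.06 on 209722_s_at.

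Many serpins lie in clusters on chromosomes 6, 14 and 18, whose counts stand beside the 36.8% of all tested genes that passed in the FAM60A knockdown and the 34.6% in the SDS3 knockdown. On chromosome 6 the members SERPINB1 and SERPINB9 were lower in both knockdowns. Of the 19 measured genes around them, up to 10 on each side, 3 were higher and 3 lower in the FAM60A knockdown, and 4 were higher and 7 lower in the SDS3 knockdown. Only genes that RefSeq lists as protein-coding were counted in these clusters, and SERPINA2 was not among them. Of 8 such clade A serpins on chromosome 14, 1 was higher and 1 lower in the FAM60A knockdown. In the SDS3 knockdown 2 of these serpins were higher and 2 lower. Their 20 neighbours gave 3 higher and 2 lower, and 2 higher and 4 lower. Of 8 tested clade B serpins on chromosome 18, 1 was higher and 2 lower in the FAM60A knockdown, and 0 were higher and 1 lower in the SDS3 knockdown. Their 18 tested neighbours gave 3 higher and 5 lower, and 3 higher and 2 lower.

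The proteases that serpins inhibit were read from a list of 51 genes, of which 48 were tested. In the FAM60A knockdown 8 were higher and 3 lower (22.9%, where 36.8% of all genes passed, median change -0.024), and in the SDS3 knockdown 7 were higher and 6 lower (27.1%, against 34.6% of all genes, median 0.0084). The plasminogen activators, targets of SERPINE2, were higher in both: PLAU, or urokinase, changed by 1.00 and 1.28, and PLAT, or tissue plasminogen activator, by 1.03 and 0.55. The lysosomal cathepsin CTSH changed by 1.36 and 0.86, and CTSB by 0.73 and 0.27. C1R, the complement protease that the C1 inhibitor blocks, changed by 0.82 in the FAM60A knockdown and -0.68 in the SDS3 knockdown, with a difference of -1.5 (limma adjusted p = 2.35e-08). Each of these changes passed. CTSS changed by -1.10 in the SDS3 knockdown, where it passed, and by -0.085 in the FAM60A knockdown, where it did not.

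Of 21 tested receptors and cofactors of serpins, from a list of 25, 8 were higher and 1 lower in the FAM60A knockdown (42.9%, against 36.8% of all genes, median 0.11) and 6 were higher and 1 lower in the SDS3 knockdown (33.3%, against 34.6%, median 0.083). THBD, or thrombomodulin, changed by 1.19 and 0.57, the serpin-protease clearance receptor VLDLR by 1.00 and 0.70, and the urokinase receptor PLAUR by 0.93 and 0.83, all passing. The heparan sulfate proteoglycan HSPG2, or perlecan, changed by 0.58 and 0.24, both passing. Another, SDC4, fell by 0.61 in the FAM60A knockdown and had 0.083 in the SDS3 knockdown, which did not pass. The integrin chain ITGAV and tissue factor, F3, changed by 0.38 and 0.41 in the SDS3 knockdown, and neither passed in the FAM60A knockdown (-0.026 and 0.11). Urokinase, its receptor and its inhibitor SERPINE2 were thus higher together in both knockdowns.

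Other families of protease inhibitors were read from a list of 38 genes with 37 tested. In the FAM60A knockdown 3 were higher and 9 lower (32.4%, against 36.8% of all genes, median -0.065), and in the SDS3 knockdown 0 were higher and 9 lower (24.3%, against 34.6%, median -0.046). CSTA, or cystatin A, changed by -1.54 in the FAM60A knockdown and -0.51 in the SDS3 knockdown, with a difference of 1.03 (limma adjusted p = 1.10e-06). The elastase inhibitor SLPI changed by -0.46 and -0.25 and the trypsin inhibitor SPINK1 by -0.40 and -0.33, all passing. WFDC1 changed by -0.28 in the FAM60A knockdown and the proSAAS gene PCSK1N by 0.61, and neither passed in the SDS3 knockdown (0.21 and 0.10). The salivary cystatin CST4 changed by -0.20 in the FAM60A knockdown and -0.34 in the SDS3 knockdown, both passing. In the SDS3 knockdown cystatin B, CSTB, changed by -0.49, CST1 by -0.45 and AMBP by -0.37, and none of these 3 passed in the FAM60A knockdown.

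**Figure D4:**
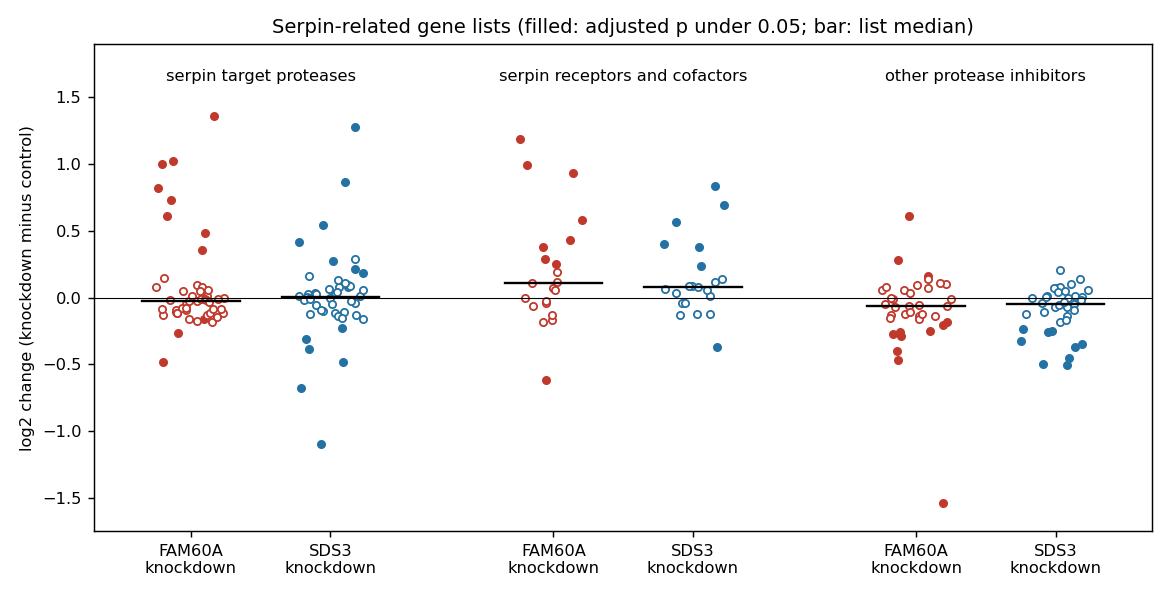
Log2 change (knockdown minus control) of each tested gene of the 3 serpin-related lists, with the FAM60A knockdown in red left of the SDS3 knockdown in blue, filled points for a limma adjusted p under 0.05 and a bar at the list's median. The medians lie between -0.065 and 0.11, with CTSH at 1.36 and PLAU at 1.28 among the highest points and CSTA at -1.54 the lowest.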

How the data were processed

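RNA from 12 A549 samples was hybridised as biotin-labelled cRNA to 1-colour arrays of 54675 probe sets. The deposited intensity values were made by RMA, per the submitters' processing notes, which give no version. They are on a linear scale, and log2 was taken, where the design had assumed log2 values. RMA removes a change shared by most transcripts. Of the probe sets, 41097 had 1 gene symbol, 1801 several and 11777 none listed; single symbols were updated by Entrez identifier through RefSeq's gene list for GRCh38.p14, where 41043 matched. Each gene was its brightest probe set over 12 arrays, and genes with at least 3 arrays at log2 5 were tested. Each knockdown was fitted against its own controls with limma 3.58.1 in R 4.3.3 (lmFit, eBayes, Benjamini-Hochberg over 18621 genes, threshold 0.05; data.table, version 1.17.8), and the difference between the changes in 1 fit of 12 arrays. Adjusted p-values throughout come from limma. The procedure was tested on simulated data. Fold changes given as "at least" set a mean under log2 5 to that level, and the p-values belong to the changes without that step.

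The members and lists were chosen with earlier results of these data known. Named were both targets, every serpin, and per list and knockdown up to 5 genes with the largest passing change; EPCAM, CDH1 and the marker genes come from a marker list. Replicate numbers did not pair the samples (correlations of same-numbered deviations from -0.12 to 0.034). Spike-in probe sets were those of the Dap, Lys, Phe and Thr poly-A controls. Alternatives covered the filter, the probe set rule, scaling (spike-in, array median, quantile and, chosen after seeing the data, 18 hybridization controls), moderation, array weights, a replicate block, 1 fit of 12 arrays, leaving out each replicate, an adjusted p of 0.01 and a 1.5-fold minimum.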

Additional observations from a re-analysis of the deposited data

Results flagged for a closer look

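For 10 serpins the change differed between the knockdowns by limma's test of the difference itself. As the SDS3 change minus the FAM60A change on the log2 scale, it was 1.25 for SERPINB9, 0.547 for SERPINI2, 0.379 for SERPINA12, 0.346 for SERPINA9, 0.296 for SERPINB12 and 0.287 for SERPINB11. With means under log2 5 set to that level, the values were at least 0.23 for SERPINI2 and at least 0.32 for SERPINA12. SERPINB11 had no SDS3 array above that level, so no SDS3 change above it was measured. The difference was -1.19 for SERPINI1, -0.747 for SERPINB1, -0.722 for SERPINB7 and -0.421 for SERPINH1. The differences of SERPINB9, SERPINB1, SERPINB7 and SERPINI1 passed under every alternative run, 25 for each, although that of SERPINB9 passed on only 1 of its 3 probe sets. Target, depth of knockdown and experiment cannot be told apart in these differences.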

How the results depend on the processing

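Under every alternative run, 3 of the 9 FAM60A calls (SERPINA3, SERPINB9, SERPINE2), 5 of the 11 SDS3 calls (SERPINA6, SERPINB1, SERPINB9, SERPINE2, SERPINI1) and 4 of the 10 differences kept their direction and call. Among the calls only SERPINA12 in the SDS3 knockdown changed sign, at -0.036 under spike-in scaling, where it no longer passed. That scaling moved the median change of all genes to -0.12 (FAM60A), -0.32 (SDS3) and -0.21 (difference), and hybridization control scaling, chosen after seeing the data, to 0.036, -0.071 and -0.12; other causes were not tested. With the FAM60A knockdown, serpins passing numbered 9, with 4 higher and 5 lower, of 3577 higher and 3278 lower genes, 32 list genes and 3 other probe sets. Spike-in scaling gave 5 serpins, 2 lower, 1347 higher genes and 21 list genes; hybridization control scaling 2 lower serpins and 1713 lower genes; an adjusted p of 0.01 gave 5 serpins, 2 lower, and 2125 lower genes; a 1.5-fold minimum 3 serpins, 2 higher and 1 lower, 896 higher and 471 lower genes, 12 list genes and 1 other probe set; 1 fit of 12 arrays 6 other probe sets. Leaving out 1 replicate gave 6 to 10 serpins and 3 to 6 lower ones, the 3 without FAM60A control replicate 2. With the SDS3 knockdown, serpins passing numbered 11, with 4 higher and 7 lower, of 2941 higher and 3498 lower genes and 29 list genes. The mean of all probe sets gave 7 higher serpins; spike-in scaling 1 higher and 11 lower serpins, 496 higher and 9130 lower genes and 57 list genes; hybridization control scaling 1677 higher genes; an adjusted p of 0.01 gave 1880 higher genes; a 1.5-fold minimum 5 serpins, 1 higher and 4 lower, 604 higher and 692 lower genes and 6 list genes. Leaving out 1 replicate gave 9 to 12 serpins. For the difference, 10 serpins passed, 6 positive and 4 negative, of 1861 positive and 2855 negative genes. A filter at log2 7 gave 3 positive serpins; spike-in scaling 6 serpins, 1 positive, and 191 positive genes; hybridization control scaling 6 serpins, 1 positive, and 537 positive genes; an adjusted p of 0.01 gave 6 serpins, 2 positive, and 952 positive and 1859 negative genes; a 1.5-fold minimum 4 serpins, 1 positive, and 338 positive and 759 negative genes. Leaving out 1 replicate gave 7 to 10 serpins and 3 to 6 positive ones, the 3 without SDS3 control replicate 2. With the replicate number as a block, although the numbers do not pair the samples, 9 serpins passed in the FAM60A knockdown, 9 in the SDS3 knockdown and 8 for the difference. Signals near log2 5 limit what could be seen of SERPINB11, SERPINA12 and SERPINI2.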
